A study of Mus musculus with 6 samples.

Results

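The type I interferon pathway was described in hypothalamic neural stem/progenitor cells (NSC/NPCs) of mouse fetuses through 44 listed genes of signaling and antiviral defence, of which 43 had a row among the 22048 genes measured by RNA-Seq. The genes were chosen by their names with the values of these same samples already known, so their levels and their HE against NC differences are given as a description, with no test of the list. Mx2 was not analysed here. There were 3 NC samples (NC1, NC2 and NC3) and 3 HE samples (HE1, HE2 and HE3), each holding first-passage neurosphere cells pooled from 2 mice. All came from hypothalami of male C57BL/6 fetuses taken at E14.5 from dams that were 8 weeks old. Between E5.5 and E11.5 the HE dams were gavaged with 100 μg/kg/d of estradiol valerate, and NC dams with corn oil, although one label field describes the NC samples as untreated. As each sample pools animals and no source ties samples to separate cultures or litters, any p-value below measures only the spread between these samples.

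Type I interferons are secreted proteins that bind a receptor made of Ifnar1 and Ifnar2. The receptor's kinases activate Stat2, which joins Irf9 in a complex that binds the interferon-stimulated response element (ISRE) in target promoters. The targets include sensors of foreign nucleic acid, enzymes that block viral translation and proteins of the membrane, and brain cells of many types can express them.

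NC1 and NC2 stood apart from NC3 and from all HE samples in these genes. In 42 of the 43 mRNAs both NC1 and NC2 were above NC3 and every HE sample, and NC2 was the highest sample in 40. Among all 13927 genes with at least 60 reads over the 6 samples, 19.3% had NC1 and NC2 each above the other 4 samples, against 40 of the 41 interferon mRNAs with that many reads. These values belong to what chose the genes, and nothing is read from the difference. NC3, a control by its label, lay near the HE samples.

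Reads assigned to genes totalled 16078675 to 19137059 a sample. For a 1 kb gene, a single read is then worth 0.0523 to 0.0622 RPKM (reads per kilobase of gene, scaled to the sample's total). Depth was alike in NC1 (18767880 reads), NC2 (19137059) and NC3 (18944916). Summed levels of neural progenitor markers ran from 2823 to 4513 RPKM over the 6 samples, and those of neurons from 47.3 to 78.5 RPKM, so progenitor mRNAs were present in every sample, as labelled.

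The promoters of several of the genes hold the ISRE, which is the binding site of the complex that holds Stat2 and Irf9, and the stretches that carry it are shown for 8 of the 14 genes with a match, namely the transducer Stat2 and the 7 effectors with the largest NC2 to NC3 ratios. Sequences are from RefSeq (GRCm38.p6), from 250 bases before to 50 bases after the start, in the direction of transcription. Capitals mark matches to GAAANNGAAA or, for the other strand, TTTCNNTTTC. The Isg15 stretch lies at chr4:156200850-156200921 on the minus strand and holds 3 overlapping matches. The Oas1a stretch, chr5:120907526-120907570, the Bst2 stretch, chr8:71537562-71537627, and the Rsad2 stretch, chr12:26456538-26456597, are also on the minus strand. Those of Ifit3, chr19:34583348-34583441, Ifit3b, chr19:34607744-34607837, and Ifit1, chr19:34640760-34640838, are on the plus strand, as is that of Stat2, chr10:128270251-128270310.
Stat2: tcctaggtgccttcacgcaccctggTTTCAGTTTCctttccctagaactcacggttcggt
Isg15: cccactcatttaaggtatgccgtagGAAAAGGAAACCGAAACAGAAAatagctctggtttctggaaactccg
Oas1a: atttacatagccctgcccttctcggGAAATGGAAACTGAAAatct
Bst2: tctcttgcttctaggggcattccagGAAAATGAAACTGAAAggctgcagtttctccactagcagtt
Rsad2: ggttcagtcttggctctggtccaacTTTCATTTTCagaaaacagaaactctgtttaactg
Ifit3: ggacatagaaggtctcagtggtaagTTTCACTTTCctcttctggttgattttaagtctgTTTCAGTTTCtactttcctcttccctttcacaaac
Ifit3b: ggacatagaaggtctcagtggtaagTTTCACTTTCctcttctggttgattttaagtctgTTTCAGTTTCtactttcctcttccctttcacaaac
Ifit1: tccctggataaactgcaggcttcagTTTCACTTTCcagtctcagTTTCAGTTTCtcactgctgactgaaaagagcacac
The Ifit3 and Ifit3b stretches are the same 94 bases, from neighbouring genes whose mRNAs are also alike, so reads may have been shared between them.

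Of the 33 mRNAs with a promoter in the RefSeq table, 14 (42.4%) held an ISRE match, against 1079 of 27025 genes (3.99%). The gamma-activated site (GAS), an element of interferon gamma targets, searched as TTCNNNGAA, which reads the same on both strands, was in 9 of the 33 (27.3%) against 9.55% of all genes, and 4 held both. ISRE and GAS matches overlapped each other in 24 of 32851 promoters. The median NC2 to NC3 fold on the log2(RPKM + 0.1) scale was 9.20 (range 1.41 to 63.7) in the 14 genes with an ISRE match and 4.96 (1.08 to 45.5) in the 19 without, so the ranges overlapped. The genes were listed as parts or targets of the interferon pathway, so nothing is read from these shares. The 19 without a match include both receptors, and Ifit3 and Ifit3b, with the same stretch, both count in the 14. The folds also belong to what chose the genes, so nothing is read from their medians. A match is a description of letters and not a measured binding site.

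**Figure D1:**
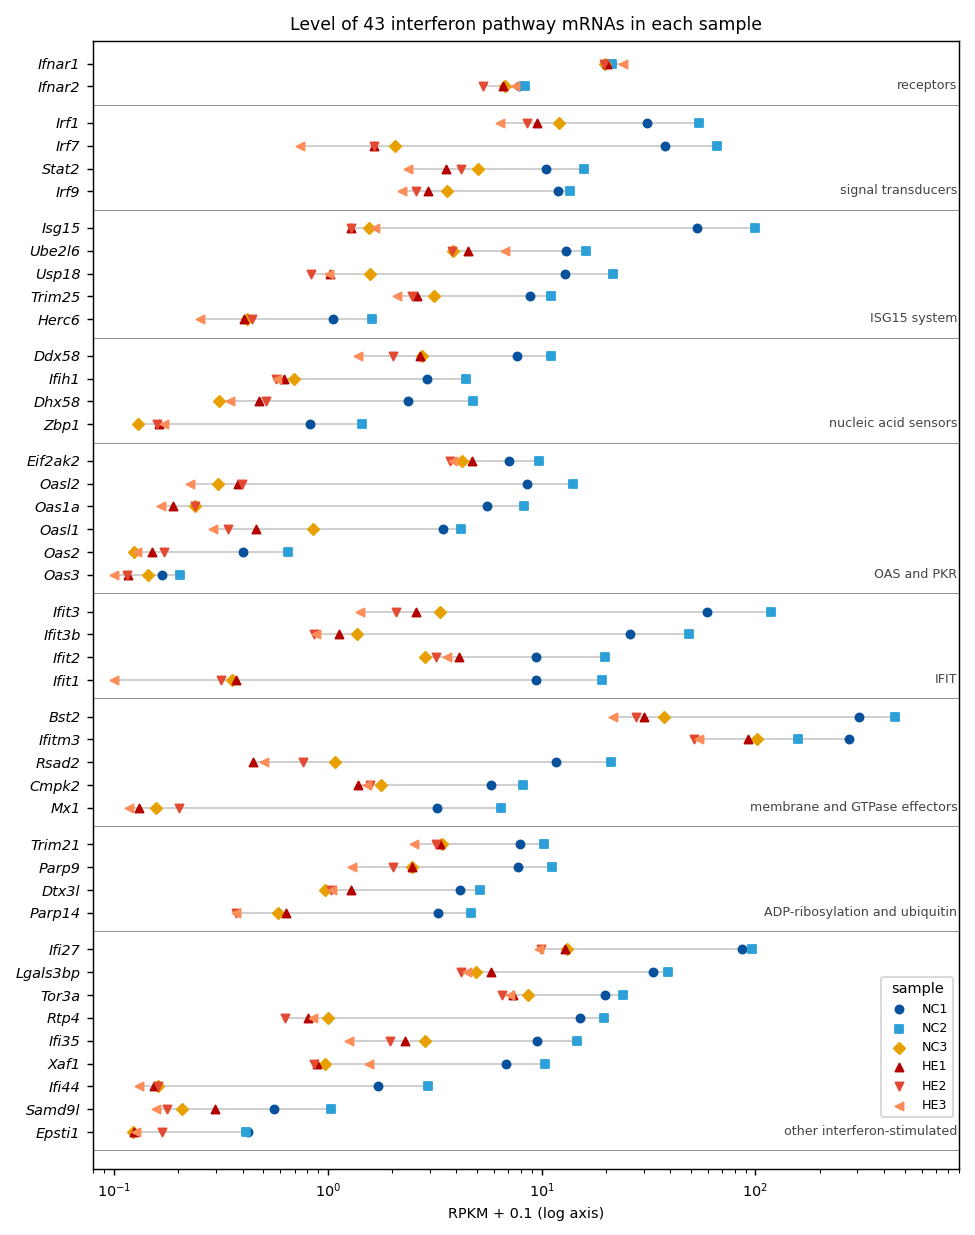
Level of the 43 interferon pathway mRNAs in each sample, as RPKM + 0.1 on a log axis, grouped by role. Each point is 1 sample, and the grey line spans the lowest to the highest sample. NC1 and NC2 lie to the right of the other 4 samples in 42 mRNAs, while Ifnar1 is highest in HE3.

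The receptor chains hardly differed among samples. Ifnar1, the chain that recruits the kinase Tyk2, measured 19.7 RPKM in NC1, 21.3 in NC2 and 19.8 in NC3, against 20.1 in HE1, 19.6 in HE2 and 23.9 in HE3. Ifnar2, the chain that binds interferon with high affinity, measured 7.78 RPKM in NC1, 8.26 in NC2 and 6.64 in NC3, against 6.49 in HE1, 5.21 in HE2 and 7.44 in HE3. The NC2 to NC3 ratio was 1.08 (95% counting interval 1.01 to 1.14) for Ifnar1 and 1.24 (95% counting interval 1.09 to 1.42) for Ifnar2. These were the smallest NC2 differences of all the mRNAs, and HE and NC samples overlapped in both genes.

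The signal transducers were each highest in NC2, next in NC1 and then in NC3. Stat2, the STAT that joins the interferon complex, measured 10.4 RPKM in NC1, 15.6 in NC2 and 4.92 in NC3, against 3.47 in HE1, 4.09 in HE2 and 2.28 in HE3. Irf9, its DNA-binding partner, measured 11.8 RPKM in NC1, 13.6 in NC2 and 3.51 in NC3, against 2.85 in HE1, 2.47 in HE2 and 2.12 in HE3. In both, the HE samples all lay below the NC samples. For Stat2 the step from NC3 to HE3 (1.08 on the log2(RPKM + 0.1) scale) was as large as that from NC1 to NC3 (1.07). Irf1, a factor also induced by interferon gamma, measured 31.01 RPKM in NC1, 54.4 in NC2 and 11.9 in NC3, against 9.47 in HE1, 8.47 in HE2 and 6.26 in HE3. Irf7, the master factor of interferon alpha transcription, measured 37.7 RPKM in NC1, 65.8 in NC2 and 1.96 in NC3, against 1.55 in HE1, 1.55 in HE2 and 0.638 in HE3. Irf7 showed the widest gap of the 4, with an NC1 to NC3 ratio of 19.3 (95% counting interval 15.9 to 23.5) and an NC2 to NC3 ratio of 33.6 (95% counting interval 27.8 to 40.9). The counting intervals here and below cover counting error only.

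The ISG15 system tags proteins with the ubiquitin-like Isg15. Isg15 itself measured 53.2 RPKM in NC1, 99.7 in NC2 and 1.47 in NC3, against 1.18 in HE1, 1.18 in HE2 and 1.56 in HE3. The NC2 to NC3 ratio was 67.98 (95% counting interval 44.3 to 110.2), and NC3 lay within the range of the HE samples. Ube2l6, the conjugating enzyme, measured 12.9 RPKM in NC1, 15.97 in NC2 and 3.76 in NC3, against 4.42 in HE1, 3.73 in HE2 and 6.67 in HE3. Usp18, which removes Isg15 and dampens receptor signaling, measured 12.7 RPKM in NC1, 21.4 in NC2 and 1.48 in NC3, against 0.921 in HE1, 0.733 in HE2 and 0.914 in HE3. Ube2l6 in HE1 and in HE3 was above NC3, whereas Usp18 in NC3 was above every HE sample. Herc6, the ligase for Isg15 in mice, and Trim25, a ligase that acts on the RNA sensor RIG-I, were 3.01-fold and 2.88-fold higher in NC1 than in NC3.

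The cytosolic RNA sensors were likewise highest in NC2 and next in NC1, at lower levels. Ddx58, which encodes RIG-I, measured 7.54 RPKM in NC1, 11 in NC2 and 2.67 in NC3, against 2.60 in HE1, 1.91 in HE2 and 1.28 in HE3. Ifih1, which encodes the long-RNA sensor MDA5, measured 2.80 RPKM in NC1, 4.33 in NC2 and 0.595 in NC3, against 0.527 in HE1, 0.475 in HE2 and 0.480 in HE3. Dhx58, a regulator of both sensors, measured 2.28 RPKM in NC1, 4.70 in NC2 and 0.210 in NC3, against 0.376 in HE1, 0.417 in HE2 and 0.247 in HE3. NC3 was the lowest of all samples for Dhx58 and was above all HE samples for Ddx58 and Ifih1. Zbp1, a sensor of Z-form nucleic acid, rested on 2 reads in NC3, and the NC2 to NC3 ratio was 45.04 (95% counting interval 12.1 to 378).

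The oligoadenylate synthetases, which activate RNase L on double-stranded RNA, were near the detection level outside NC1 and NC2. Eif2ak2 (PKR), a kinase that stops translation, measured 6.97 RPKM in NC1, 9.59 in NC2 and 4.16 in NC3, against 4.64 in HE1, 3.63 in HE2 and 3.73 in HE3. Oasl2, a synthetase-like protein, measured 8.43 RPKM in NC1, 13.9 in NC2 and 0.207 in NC3, against 0.280 in HE1, 0.296 in HE2 and 0.127 in HE3. Oas1a measured 5.43 RPKM in NC1, 8.15 in NC2 and 0.140 in NC3, against 0.0889 in HE1, 0.139 in HE2 and 0.066 in HE3. Eif2ak2 differed less, as the NC2 to NC3 ratio was 2.30 (95% counting interval 2.05 to 2.60), whereas Oas1a rested on 5 reads in NC3 and the NC2 to NC3 ratio was 58.2 (95% counting interval 24.7 to 181). Oasl1 was 4.50-fold and 5.48-fold higher in NC1 and NC2 than in NC3. Oas2 rested on 2 reads in NC3, with a ratio of NC2 to NC3 of 23.3 (95% counting interval 6.09 to 198). Oas3 did not exceed 0.103 RPKM in any sample. Oas2, Oas3 and Oas1a lie together on chromosome 5 (GRCm38.p6, bases 120730333 to 120907544).

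The IFIT genes, whose proteins bind viral RNA and block its translation, had the widest median gap of the role groups, although Ifit2 differed far less than the other 3. Ifit1 measured 9.29 RPKM in NC1, 19.04 in NC2 and 0.258 in NC3, against 0.273 in HE1, 0.217 in HE2 and 0 in HE3. Ifit2 measured 9.32 RPKM in NC1, 19.8 in NC2 and 2.76 in NC3, against 3.996 in HE1, 3.11 in HE2 and 3.52 in HE3. Ifit3 measured 59.6 RPKM in NC1, 118 in NC2 and 3.24 in NC3, against 2.50 in HE1, 1.98 in HE2 and 1.32 in HE3. All of these were highest in NC2 and about 2 times as high there as in NC1. Ifit3b measured 25.8 RPKM in NC1, 48.6 in NC2 and 1.27 in NC3, against 1.03 in HE1, 0.760 in HE2 and 0.777 in HE3. The NC2 to NC3 ratio was 73.7 (95% counting interval 42.9 to 139) for Ifit1, 36.6 (95% counting interval 30.2 to 44.8) for Ifit3 and 7.17 (95% counting interval 6.19 to 8.34) for Ifit2. For Ifit2, NC3 was below every HE sample. Ifit1 had no read in HE3, and the 4 genes lie in one cluster on chromosome 19 (GRCm38.p6, bases 34550550 to 34650009).

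The membrane and GTPase effectors held the most abundant mRNAs. Bst2 (tetherin), which holds budding virus at the cell surface, measured 304 RPKM in NC1, 451 in NC2 and 37.4 in NC3, against 29.9 in HE1, 27.6 in HE2 and 21.6 in HE3. Ifitm3, which blocks viral fusion, measured 274 RPKM in NC1, 158 in NC2 and 101 in NC3, against 92.7 in HE1, 51.7 in HE2 and 54.7 in HE3. Rsad2 (viperin), which makes a chain-terminating nucleotide, measured 11.6 RPKM in NC1, 20.9 in NC2 and 0.976 in NC3, against 0.348 in HE1, 0.666 in HE2 and 0.402 in HE3. Ifitm3 was 1 of only 2 mRNAs highest in NC1, the other being Epsti1. Its ratio of NC2 to NC3 was 1.56 (95% counting interval 1.46 to 1.68). Cmpk2, a mitochondrial nucleotide kinase beside Rsad2 on chromosome 12, was 4.87-fold higher in NC2 than in NC3. Mx1, an antiviral GTPase, rested on 4 reads in NC3, and the NC2 to NC3 ratio was 109.9 (95% counting interval 42.6 to 405).

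The ADP-ribosylation and ubiquitin genes were all highest in NC2 and next in NC1. Trim21, an antibody receptor and ubiquitin ligase, measured 7.81 RPKM in NC1, 10.2 in NC2 and 3.33 in NC3, against 3.26 in HE1, 3.10 in HE2 and 2.44 in HE3. Parp9 measured 7.64 RPKM in NC1, 11.1 in NC2 and 2.38 in NC3, against 2.37 in HE1, 1.93 in HE2 and 1.20 in HE3. Dtx3l, the ligase that pairs with Parp9, measured 4.06 RPKM in NC1, 5.08 in NC2 and 0.867 in NC3, against 1.19 in HE1, 0.934 in HE2 and 0.945 in HE3. NC3 was below every HE sample for Dtx3l and level with HE1 for Trim21 and Parp9. Parp9 and Dtx3l overlap on chromosome 16, so reads may be shared. Parp14 was 6.53-fold higher in NC1 and 9.43-fold higher in NC2 than in NC3.

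Among the remaining interferon-stimulated mRNAs, Ifi27 was the most abundant. Ifi27 measured 86.4 RPKM in NC1, 96.3 in NC2 and 13.1 in NC3, against 12.8 in HE1, 9.86 in HE2 and 9.58 in HE3. Lgals3bp, a secreted glycoprotein, measured 33.2 RPKM in NC1, 38.7 in NC2 and 4.86 in NC3, against 5.73 in HE1, 4.11 in HE2 and 4.39 in HE3. Tor3a, an ATPase of the endoplasmic reticulum, measured 19.6 RPKM in NC1, 24.1 in NC2 and 8.58 in NC3, against 7.28 in HE1, 6.44 in HE2 and 7.02 in HE3. All of these had NC1 and NC2 well above the other 4 samples. Ifi35, Xaf1, Rtp4, Samd9l and Ifi44 were 5.27-fold to 47.1-fold higher in NC2 than in NC3. Epsti1 rested on 1 read in NC3, with a ratio of NC2 to NC3 of 13.9 (95% counting interval 2.11 to 586).

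Sample by sample on the log2(RPKM + 0.1) scale, which also holds for the folds in the next paragraph, NC1 was at least 2-fold above NC3 in 38 of 41 mRNAs, where 1.97% of all genes were. NC2 was at least 2-fold above NC3 in 38 of 41, where 2.55% of all genes were. The exceptions were Ifnar1 and Ifnar2 in both, with Eif2ak2 in NC1 and Ifitm3 in NC2. The median difference over the 43 mRNAs, as log2(RPKM + 0.1), was 2.03 for NC1 minus NC3 and 2.42 for NC2 minus NC3, against 0.04 and 0.02 over all genes with enough reads. This scale understates differences of low mRNAs, so some plain ratios pass 2-fold where these counts do not include them. By role group, the median of NC2 over NC3 ran from 1.16-fold for the receptors to 35.6-fold for IFIT. NC2 also exceeded NC1 in 41 of 43 mRNAs with a median of 0.58, against −0.02 over all genes. On this scale Dhx58, Ifit1 and Ifit2 reached 2-fold in that pair, 3 of 41 beside 1.03% of all genes, and by plain ratio Mx1 (2.03) and Samd9l (2.02) did too.

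NC3 was close to the HE samples. NC3 was at least 2-fold above HE1 in 1 of 41 mRNAs (Rsad2) beside 0.704% of all genes, and above HE2 in 1 (Oasl1) beside 1.98%. By plain ratio, Oasl1 over HE1 (2.06) and Usp18 over HE2 (2.01) reached 2-fold as well. It was at least 2-fold above HE3 in 8 of 41 mRNAs, while 13.1% of all genes were, and by plain ratio Herc6 (2.07), Oas1a (2.12) and Mx1 (3.39) reached it too. The median of NC3 minus HE was 0.13 for HE1, 0.27 for HE2 and 0.44 for HE3, against −0.03, −0.02 and 0.13 over all genes. NC3 was the highest of NC3 and the 3 HE samples in 24 of 43 mRNAs and the lowest in 6. Among mRNAs with at least 60 reads NC3 was above every HE sample in 23 of 41, and 28.1% of all genes were. The 6 in which NC3 was lowest were Dhx58, Zbp1, Oas2, Ifit2, Dtx3l and Epsti1.

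**Figure D2:**
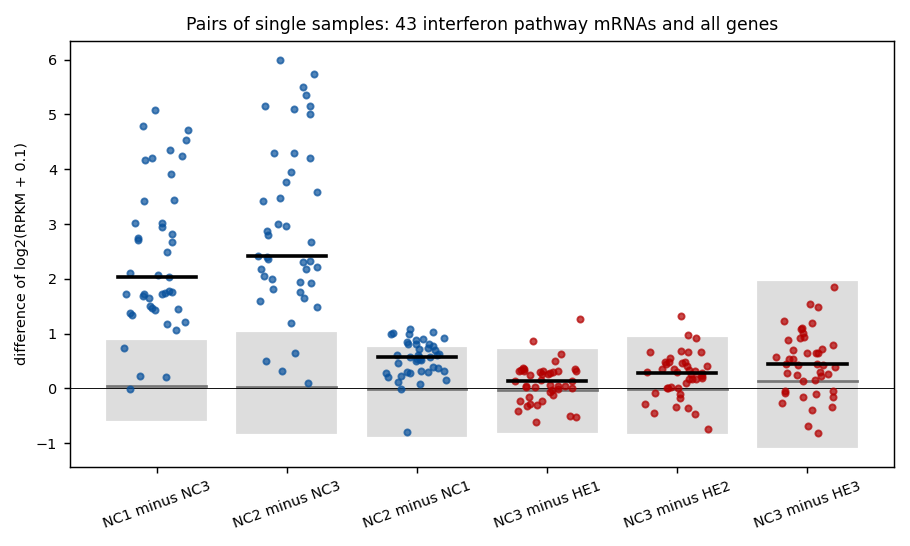
Difference of log2(RPKM + 0.1) between pairs of single samples, where each point is 1 of the 43 interferon pathway mRNAs, the black line is their median, the grey line is the median of all genes with at least 60 reads and the grey box spans the central 95% of those genes. The medians of 2.03 and 2.42 against NC3 contrast with 0.13, 0.27 and 0.44 for NC3 against the HE samples.

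As groups, HE and NC were compared in a limma fit over 13952 genes that held 36 of the 43 mRNAs. The 7 left out by the filter on low values were Zbp1, Oas1a, Oas2, Oas3, Mx1, Ifi44 and Epsti1. As the filter needs enough reads in 3 samples, it favours mRNAs high in at least 3. It left out mRNAs with enough reads only in NC1 and NC2, such as Mx1 and Oas1a. In HE compared with NC, 35 of the 36 were lower, with a median log2 fold change of −1.78 against −0.06 over all genes tested. None of the 36 passed limma's adjusted p of 0.05 with a log2 fold change of 1, nor did any gene (0% of all tested), and the smallest adjusted p of any gene was 0.148. At an unadjusted p under 0.05, 29 of the 36 were lower, beside 11.8% of all genes, and with voom on the read counts 15 were, with 0 called. Without NC1 the count fell to 13 and without NC2 to 13, while without NC3 it was 34. Every HE sample was below every NC sample in 21 of the 36, beside 17.9% of all genes. These comparisons share the values that chose the genes, so nothing is read from the counts.

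The group difference of single mRNAs was large but so was the spread within NC. Ifit1 had a log2 fold change of −4.14 ± 1.40 (SE), with means of 9.53 ± 9.40 RPKM in NC and 0.164 ± 0.144 in HE (SD, n = 3 each). Isg15 had a log2 fold change of −3.86 ± 1.40, with means of 51.4 ± 49.1 RPKM in NC and 1.31 ± 0.221 in HE. Bst2 had a log2 fold change of −2.72 ± 0.84, with means of 264 ± 209.8 RPKM in NC and 26.4 ± 4.30 in HE. In each the SD within NC was comparable to the NC mean. Stat2 had a log2 fold change of −1.52 ± 0.42, Tor3a of −1.20 ± 0.35 and Ifnar1 of 0.06 ± 0.12.

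The median group difference was larger without NC3 and smaller with NC3 as the only NC sample. Without NC3, 26 of the 36 mRNAs were called lower in HE, beside 0.688% of all genes, and they made up 25.2% of the 103 genes called. The log2 fold change of Ifit1 was then −5.88 and that of Isg15 −5.71. With NC3 alone against the HE samples, the median over the 36 was −0.35 and 29 were lower. The values of NC1, NC2 and NC3 belong to what chose the genes, so nothing is read from these counts. In bulk samples, fewer cells of a type that express these mRNAs and less RNA per cell cannot be told apart.

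**Figure D3:**
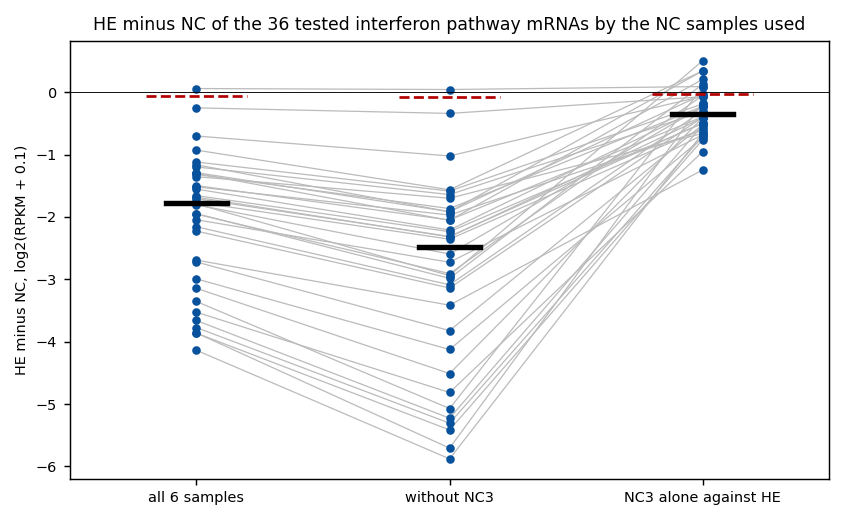
HE minus NC difference on the log2(RPKM + 0.1) scale for the 36 tested interferon pathway mRNAs, with all 6 samples, without NC3 and with NC3 as the only NC sample. Each point is 1 mRNA, grey lines join the same mRNA, black bars are their medians and dashed red bars the medians of all genes tested. The median moves from −1.78 with all samples to −0.35 with NC3 alone.

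The interferon ligands themselves were barely detected. Over the 21 listed interferon genes, all reads summed to 11 in NC1, 15 in NC2 and 14 in NC3, against 27 in HE1, 42 in HE2 and 24 in HE3. Ifnb1, the interferon beta gene, had 7 reads over all samples. Ifnz was the only ligand tested and reached 32 reads in 1 sample. Each HE sample had more ligand reads than any NC sample, but single genes made up much of these sums. Ifnz had 6 reads in NC1, 9 in NC2 and 12 in NC3, against 19 in HE1, 32 in HE2 and 5 in HE3. Ifna13 had 10 reads in HE3. With so few reads, nothing is read from the order of the sums.

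The rest of the pathway was followed in 100 further genes, written down from the known biology with earlier results of these data known, of which 99 had a row and 61 were tested. In HE compared with NC 47 were lower and 14 higher, with a median of −0.41. None passed limma's adjusted p (lowest adjusted p 0.195), and 20 were lower, beside 11.8% of all genes, and 1 higher at an unadjusted p under 0.05. Without NC3, 7 were called, beside 0.688% of all genes called lower.

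Jak1, the kinase bound to Ifnar2, measured 15.6 RPKM in NC1, 17.9 in NC2 and 15.4 in NC3, against 14.9 in HE1, 14.2 in HE2 and 13.1 in HE3. Tyk2, the kinase bound to Ifnar1, measured 10.7 RPKM in NC1, 9.66 in NC2 and 9.56 in NC3, against 8.05 in HE1, 7.91 in HE2 and 6.64 in HE3. Neither showed the gap between NC3 and the other NC samples. Adar, an RNA editing enzyme that limits RNA sensing, measured 13.7 RPKM in NC1, 14.03 in NC2 and 7.96 in NC3, against 6.90 in HE1, 7.45 in HE2 and 5.71 in HE3. Tmem173, which encodes the DNA sensor adaptor STING, measured 1.97 RPKM in NC1, 1.38 in NC2 and 2.50 in NC3, against 2.77 in HE1, 3.37 in HE2 and 10.4 in HE3 and was the 1 gene higher in HE at an unadjusted p under 0.05.

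Of the other lists, all 4 kinases and STATs with values reported here (Jak1, Jak2, Tyk2 and Stat3) were lower in HE. Of these, 2 (Tyk2 and Stat3) were so at an unadjusted p under 0.05. All 4 had NC1 and NC2 above the other 4 samples, beside 19.3% of all genes with at least 60 reads. The margin was narrow for Jak1 (15.6 RPKM in NC1 against 15.4 in NC3) and Tyk2 (9.66 in NC2 against 9.56 in NC3). It was also narrow for Jak2 (10.31 in NC1 against 10.27 in HE1) and Stat3 (62.2 in NC1 against 60.3 in NC3). In addition, 3 of 4 tested type II and III receptors, 4 of 5 further IRFs, 8 of 11 upstream sensors and adaptors and 5 of 11 negative regulators and nucleases were lower in HE. Among 24 other tested interferon-stimulated genes 22 were lower, 10 at an unadjusted p under 0.05, where 11.8% of all genes were. In 32 of the 37 with a row NC1 and NC2 were each above the other 4 samples, beside that 19.3% of all genes. The 37 were not filtered on reads. Some of the 32 rested on few, such as Phf11b (4 reads in NC1 and 5 in NC2) and Sp100 (5 and 6). Trim30a, an interferon-induced TRIM protein, measured 3.17 RPKM in NC1, 6.11 in NC2 and 0.215 in NC3, against 0.126 in HE1, 0.119 in HE2 and 0.0985 in HE3.

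**Figure D4:**
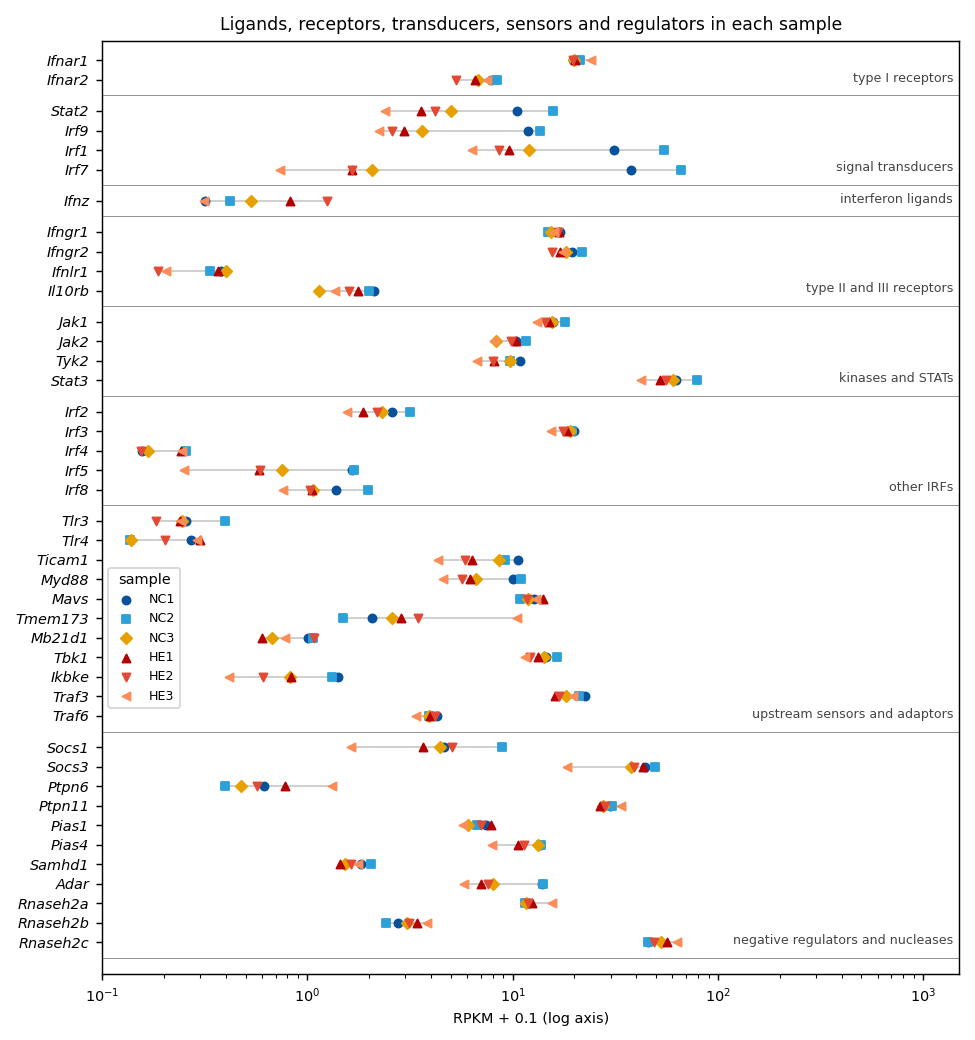
Level of pathway genes in each sample, from a ligand and receptors to kinases, IRFs, sensors and regulators, as RPKM + 0.1 on a log axis. Each point is 1 sample. Ifnar1, Ifnar2 and Jak1 each lie close together in all samples, whereas Stat2, Irf9, Irf1 and Irf7 have NC1 and NC2 apart from the other 4 samples.

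The same order of samples was looked for in all genes. NC1 and NC2 were each at least 4-fold above NC3 and every HE sample, on the log2(RPKM + 0.1) scale, in 62 of 13927 genes (0.445%). Of these 62, 21 were among the 43 mRNAs, 8 were on the list of 100 further genes and 33 were on neither. No gene had the opposite order at that size.

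The 10 most abundant of the genes outside the 43 included antigen presentation genes. H2-K1, a classical MHC class I heavy chain, measured 379 RPKM in NC1, 571 in NC2 and 88 in NC3, against 78.1 in HE1, 88.7 in HE2 and 45.3 in HE3. H2-D1, another such chain, measured 287 RPKM in NC1, 351 in NC2 and 64 in NC3, against 53.5 in HE1, 55.7 in HE2 and 43.2 in HE3. H2-Q4 measured 49.4 RPKM in NC1, 81.02 in NC2 and 9.11 in NC3, against 5.62 in HE1, 6.28 in HE2 and 4.31 in HE3. These are MHC genes with many close copies, so reads may be shared among them. H2-T23, a non-classical chain, measured 31.9 RPKM in NC1, 56.02 in NC2 and 4.28 in NC3, against 4.58 in HE1, 4.85 in HE2 and 3.14 in HE3.

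Guanylate-binding proteins, which attack intracellular microbes, and chemokines were also in that set. Gbp2 measured 99.05 RPKM in NC1, 193 in NC2 and 13.2 in NC3, against 12.1 in HE1, 5.17 in HE2 and 5.66 in HE3. Gbp3 measured 35.3 RPKM in NC1, 54.3 in NC2 and 3.78 in NC3, against 3.61 in HE1, 2.78 in HE2 and 5.20 in HE3. Ccl2, a chemokine that attracts monocytes, measured 46.8 RPKM in NC1, 92.98 in NC2 and 5.10 in NC3, against 6.18 in HE1, 4.01 in HE2 and 8.53 in HE3. In Gbp2, NC3 was above HE2 and HE3 but level with HE1, and in Gbp3 and Ccl2 it lay within the HE range. Cxcl10, a chemokine induced by interferons, measured 56.6 RPKM in NC1, 81.4 in NC2 and 4.50 in NC3, against 4.51 in HE1, 3.70 in HE2 and 1.77 in HE3. Ifi27l2a measured 72.8 RPKM in NC1, 94.2 in NC2 and 0.912 in NC3, against 1.81 in HE1, 1.02 in HE2 and 2.82 in HE3. Lcn2, an iron-binding protein of inflammation, measured 92.98 RPKM in NC1, 119 in NC2 and 4.47 in NC3, against 3.43 in HE1, 1.46 in HE2 and 5.52 in HE3.

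Markers of immune cells, which can carry high levels of these mRNAs, did not share one order of samples. Summed microglia and macrophage markers ran from 11.9 to 17.9 RPKM over the 6 samples. Cd68, a lysosomal marker and the largest of the list in every sample, measured 12.8 RPKM in NC1, 16.6 in NC2 and 10.7 in NC3, against 8.13 in HE1, 8.59 in HE2 and 4.60 in HE3. For Cd68, NC1 and NC2 were thus both above the other 4 samples, as in the interferon mRNAs, whereas the complement genes C1qa, C1qb and C1qc had 2 reads or fewer in each NC sample. C1qa had 0 reads in NC1, 0 in NC2 and 1 in NC3, against 18 in HE1, 5 in HE2 and 53 in HE3. Ptprc, the pan-leukocyte marker, had 0 reads in NC1, 0 in NC2 and 2 in NC3, against 10 in HE1, 2 in HE2 and 16 in HE3. Tmem119, Trem2, Tyrobp and Fcrls, like the C1q genes, had every HE sample above every NC sample. Tmem119 had 22 reads in NC1, 20 in NC2 and 21 in NC3, against 59 in HE1, 53 in HE2 and 58 in HE3. Csf1r, Cx3cr1, P2ry12, Aif1 and Itgam overlapped between NC and HE. Csf1r had 18 reads in NC1, 15 in NC2 and 14 in NC3, against 23 in HE1, 12 in HE2 and 21 in HE3. P2ry12 had 13 reads in NC1, 16 in NC2 and 15 in NC3, against 21 in HE1, 14 in HE2 and 6 in HE3. Of the 14 microglia and macrophage markers 4 were at 0 in NC1, 7 in NC2 and 3 in NC3, and none in the HE samples. Lymphocyte and dendritic cell markers summed to 2.06 to 3.54 RPKM.

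In none of the marker lists were the summed levels of NC1 and NC2 both above the other 4 samples. Astrocyte markers summed to 1749 RPKM in NC1, 2300 in NC2 and 1653 in NC3, against 1818 in HE1, 1522 in HE2 and 1201 in HE3, so NC2 was highest but HE1 exceeded NC1. Mesenchymal and mural markers summed to 166 RPKM in NC1, 72.7 in NC2 and 109 in NC3, against 226 in HE1, 190 in HE2 and 105 in HE3. Endothelial markers ran from 3.22 to 6.51 RPKM, oligodendrocyte lineage markers from 282 to 508 and erythroid markers from 0.454 to 4.45. The part of cell makeup in the interferon values was not tested.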

How the data were processed

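RNA-Seq was available for 3 NC and 3 HE samples. The authors aligned filtered reads with TopHat2 (mm10, CASAVA 1.7 also named in the submitters' processing notes), counted reads per gene and deposited RPKM beside the counts. The RPKM values differed from reads divided by length and total by at most 4.99e-07. The library was strand-specific per the study, but strand use in counting is not given in the sources used here. The deposited read count columns, recorded as another unit because large values carry commas, served only the filter, the depth, counting intervals and voom, so the count model of the study was not run. No column of other samples was left over.

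Gene symbols were found for 21781 of 22048 Ensembl identifiers, and coordinates and promoters are RefSeq GRCm38.p6. HE and NC were compared with limma 3.58.1 in R 4.3.3 (mean-variance trend) and no covariate on log2(RPKM + 0.1), with Benjamini-Hochberg adjustment. Genes needed 10 reads in a library of median size in 3 samples and 15 reads in all. The fit was tested on simulated data. Single samples were compared without a test over genes with at least 60 reads. Counting intervals are exact 95% intervals.

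The 44 genes, the lists and the alternatives were chosen with earlier results of these data known. Values in every sample are given for both receptors, the signal transducers, the IFIT genes and up to 3 mRNAs of highest mean RPKM per role group, and for the 10 most abundant other genes at least 4-fold higher in NC1 and NC2. Other genes named (Jak1, Jak2, Tyk2, Stat3, Adar, Tmem173, Trim30a, Phf11b, Sp100, Ifnb1, Ifnz, Ifna13, C1qa, C1qb, C1qc, Cd68, Ptprc, Tmem119, Trem2, Tyrobp, Fcrls, Csf1r, Cx3cr1, P2ry12, Aif1 and Itgam) were chosen after their values were seen. The alternatives were a pseudocount of 1, median-of-ratios scaling, other filters, a replicate block, voom, leaving out each sample and, added after seeing the data, NC3 alone against HE. Values of 1 further pathway gene are not reported here, although counts over the list include it.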

Additional observations from a re-analysis of the deposited data

How the results depend on the processing

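No value of HE minus NC over the 36 mRNAs changed sign in its median under any alternative, and no gene passed the adjusted threshold except when NC3 was left out. Leaving out single samples gave 0 to 103 genes called, 0 to 26 of the 36 mRNAs called and 9 to 29 further pathway genes lower at an unadjusted p under 0.05, each highest without NC3. For the pathway genes the count was 9 without NC1 and 10 without NC2. The median over the 36 then ran from −2.47 to −1.27. NC3 alone against HE was added after seeing the data, with the lone sample assumed to vary like HE. In that setting the median over the 36 was −0.35 and that over the tested further pathway genes was −0.05. Genes with an unadjusted p under 0.05 numbered 2858, and 2914 with voom. With the replicate block, whose same-numbered samples correlated at only 0.16, 0.087 and 0.060, 0 genes were called. Median-of-ratios scaling moved the median of all genes from −0.06 to −0.00.

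Medians between single samples were compared with the SD of the members' median over HE samples, 0.0221, a strict measure under which most settings count as a move. NC1 minus NC3 was 1.44 with a pseudocount of 1, 1.99 with median-of-ratios scaling and 2.06 over mRNAs with at least 60 reads. NC2 minus NC3 was 1.84, 2.38 and 2.67 under the same settings. NC3 minus HE1 was 0.038 with a pseudocount of 1 and 0.15 with median-of-ratios scaling, NC3 minus HE2 was 0.18 with a pseudocount of 1, and NC3 minus HE3 was 0.14 and 0.35. Of 465 values of single mRNAs over the settings, 18 were not below 0, in 7 mRNAs. Groups of 3 samples and the few reads of the synthetases, Mx1 and Zbp1 limit all of these values.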
